A study of Homo sapiens with 5 samples.

Results

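The genes described here are those with both a ribosome footprint value and an RNA value in control HEK293A cells, a human embryonic kidney cell line, and the quantity followed is their baseline translational efficiency. Of the 10522 entries in the deposited abundance table, 10487 genes were kept, after leaving out 17 entries whose symbols had been turned into dates and the 18 entries of 9 symbols that occurred on 2 rows. The study measured RNA-seq and Ribo-seq, the sequencing of the mRNA fragments that ribosomes protect, in cells given control siRNA (siCon) or IRE1α siRNA (siIRE1a), and all cultures were starved and then given FBS (fetal bovine serum). Of its 5 samples, 2 were siCon libraries and 1 was a Ribo-seq library in which siCon and siIRE1a material was multiplexed. The labels describe the siCon samples as RNA-seq and the siIRE1a samples as Ribo-seq, although the table holds both kinds of value for both groups, so the assay was read from the column headers. The siIRE1a values were not used, so nothing below compares treatments.

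Translational efficiency (TE) is the footprint value of a gene divided by its RNA value, and it compares how densely ribosomes occupy the mRNAs of different genes. Initiation is usually the slowest step of translation, and it depends on the cap-binding eIF4F complex, on the sequence around the start codon and on short upstream open reading frames (uORFs) that can capture scanning ribosomes. Serum activates mTOR signalling, which releases the cap-binding protein eIF4E and favours mRNAs that begin with a C followed by a pyrimidine run, the 5′ terminal oligopyrimidine (TOP) motif found in ribosomal protein genes.

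The authors gave 1 footprint value and 1 RNA value per gene for the siCon group, so no spread between replicates can stand beside any value, no test was made, and all differences are descriptions of these values. Their unit is not stated, and how many reads lie behind each value is unknown. The siCon libraries held 28769136 and 31876615 clusters in the deposited run summary, at 302 bases per cluster. Of 8 marker genes listed for HEK293 cells, 6 had values (VIM, KRT8, KRT18, NEFL, CDH2 and LIN28B), as did 3 of 6 fibroblast markers (COL1A1, COL3A1 and PDGFRA), with a summed RNA value of 1.25 against 16.8. None of 7 blood, 5 liver and 4 muscle markers was in the table.

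The footprint value ranged from 0.0221 to 812 with a median of 1.84, and the RNA value from 0.0116 to 2564 with a median of 0.411. The TE ratio ran from 0.0153 to 296 with a median of 4.70. It was above 1 for 97.4% of genes and at or below 1 for 272 genes, but since the scales of both columns are unknown, TE is given below on the log2 scale relative to the median of all genes. A gene is called high or low in TE when it lay at least 2-fold from that median, which 1885 genes (18.0%) did above and 1828 genes (17.4%) did below. The 10th and 90th percentiles of TE were 7.05-fold apart, compared with 18.1-fold for RNA and 35.4-fold for footprints. Across the 10487 genes, footprints followed RNA with a Spearman coefficient of 0.80 and a log2 slope of 0.99. The Spearman coefficient of TE with the RNA value was 0.02. Since TE has that RNA value as its denominator, the coefficient cannot show whether they are related. Genes are not independent replicates, and whether both assays were scaled by the same annotation and length model is not stated.

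**Figure D1:**
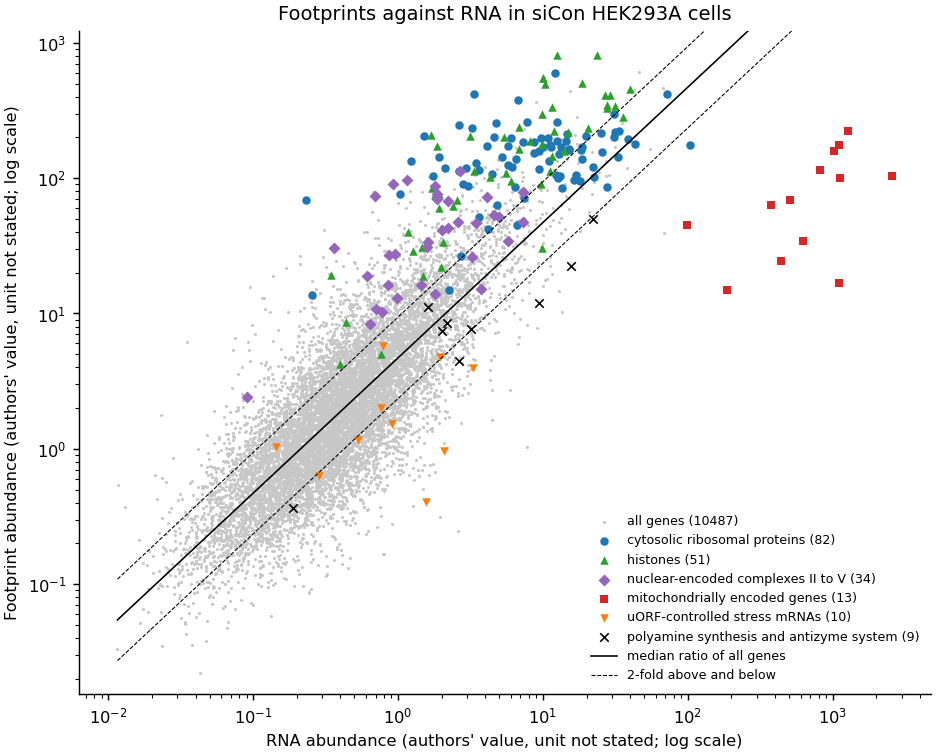
Footprint value (y axis) against RNA value (x axis) of 10487 genes in siCon cells, both on log scales in the authors' unstated unit, with 6 gene lists marked, the median ratio as a solid line and 2-fold above and below it as dashed lines. The 13 mitochondrially encoded genes lie far to the right of the line, while most ribosomal protein, histone and respiratory chain genes lie above it.

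TE was strongly related to the length of the coding sequence. Coding length came from 1 GENCODE release 29 transcript per gene, matched for 10447 genes (99.6%). The Spearman coefficient of TE with coding length was −0.54, and it was −0.25 for the RNA value and −0.51 for the footprint value. Of 5 classes of equal size by coding length, the shortest (median 567 bases) had a median log2 TE of 0.91 and 46.9% of its genes were high. In the class with the longest coding sequences (median 3638 bases) it was −0.80 and 1.72% were high. Of the 169 genes whose coding sequence is shorter than the 302 bases sequenced per cluster, 126 were high and the median was 3.53-fold above all genes. What sets this relation was not tested. A smooth trend of log2 TE on log2 coding length was therefore also taken off, and the rest is called length-adjusted TE. On that scale 1285 genes (12.3%) were high and 1484 (14.2%) were low by the same 2-fold limit.

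**Figure D2:**
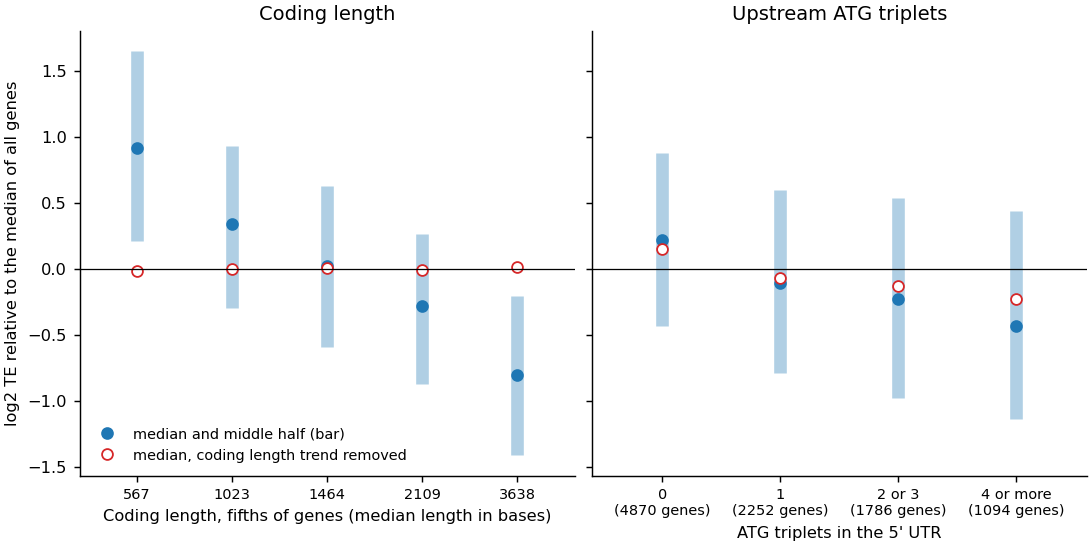
Median log2 TE relative to all genes (filled points) with the middle 50% of genes (bars), and median length-adjusted TE (open points), by class of coding length on the left and by number of ATG triplets in the 5′ UTR on the right. TE declines from 0.91 to −0.80 over the length classes, and from 0.22 to −0.43 with more upstream ATGs, where the length-adjusted medians run from 0.15 to −0.23.

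Genes with more ATG triplets in the 5′ UTR had lower TE. The median log2 TE was 0.22 for the 4870 genes with none, −0.10 for 2252 genes with 1, −0.23 for 1786 genes with 2 or 3 and −0.43 for 1094 genes with 4 or more. After length adjustment the medians were 0.15, −0.07, −0.13 and −0.23. The base 3 positions before the start codon, which is usually a purine in a strong initiation context, ordered genes the same way. Median log2 TE was 0.06 with A (4762 genes) and 0.04 with G (4125 genes), against −0.13 with C (849 genes) and −0.32 with T (504 genes). These differences were small beside the spread within each class, where the middle 50% of the genes with A ran from −0.68 to 0.78. The GC content of the transcript was less related to TE (Spearman −0.08). A pyrimidine at this position was found at both ends of the TE range, as 4 named genes show, whose contexts are given 5′ to 3′ from GENCODE 29 with the start codon in capitals.
PPP1R15A: gcccagacacATGg
OAZ1: cagcggccggATGg
JUN: ggactgttctATGa
EIF1: atcgtatcgtATGt
The TE ratios of these genes were 0.471 for PPP1R15A, 1.27 for OAZ1, 5.04 for JUN and 30.7 for EIF1.

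The lowest TE in the table belonged to the mRNAs made and translated inside mitochondria. All 13 mitochondrially encoded genes were low, with a median log2 TE of −5.11, which is 34.5-fold under the median of all genes. It was −6.50 after length adjustment and −4.47 under quantile normalization. The next lowest list median was −1.21. MT-ND4, a subunit of respiratory complex I, had a footprint value of 16.8 and an RNA value of 1099.8, and its TE ratio of 0.0153 was the lowest of all genes. MT-ATP6, a subunit of ATP synthase, had the highest RNA value in the table (2564) and a footprint value of 104, a ratio of 0.0404. MT-ND4L had the highest TE of the group, with a footprint value of 44.8 against an RNA value of 98.6, and was still 10.4-fold below the median. The 7 complex I genes had a median 58.6-fold under that of all genes and the 6 genes of complexes III to V one 31.99-fold under it, a split made after the values were seen. MT-CO1, the catalytic subunit of cytochrome c oxidase, had footprints at 223 and RNA at 1284. Together these 13 genes carried 52.1% of the summed RNA value and 1.39% of the summed footprint value. Mitochondrial mRNAs are read by separate mitochondrial ribosomes, whose footprints need not be recovered like those of cytosolic ribosomes, and the part of this in the values was not tested. Of these genes, 10 share over 20% of their 28-base runs with other annotated transcripts, so nuclear copies can divide their reads. The part of this in the values was not tested either. MT-ND3 and MT-CYB, with 4.39% and 7.09% of runs shared, had a log2 TE of −5.11 and −5.72. MT-ATP6 and MT-CO1, with 66.7% and 70.8% shared, had −6.86 and −4.76.

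**Figure D3:**
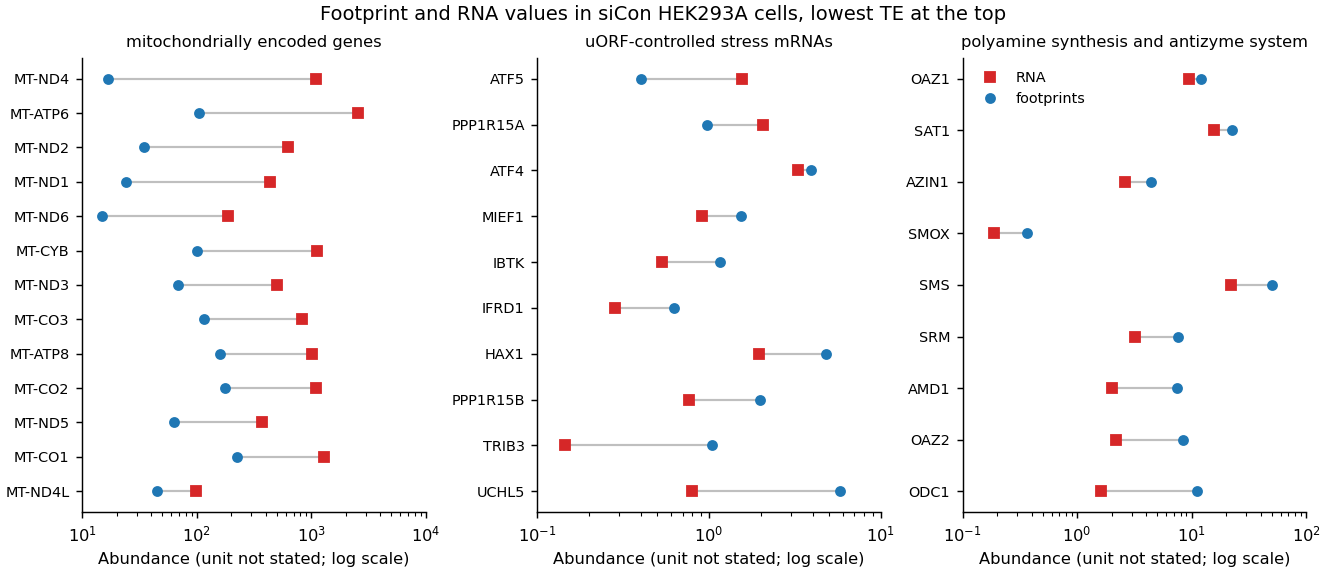
Footprint value (circles) and RNA value (squares) of each gene, on log axes in the authors' unstated unit, for the 13 mitochondrially encoded genes, 10 stress mRNAs with known uORFs and 9 polyamine genes, with the lowest TE at the top. RNA exceeds footprints for every mitochondrially encoded gene, and otherwise for ATF5 and PPP1R15A, whereas the median gene has footprints 4.70 times its RNA value.

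Nuclear genes for the partners of these subunits lay at the other end. Among 34 genes of respiratory complexes II to V, 29 were high and 0 low, with a median log2 TE of 2.03. Their length-adjusted median was 1.27, with 19 at least 2-fold high, and quantile normalization brought the unadjusted median to 1.35. ATP5G3, which encodes the proteolipid c-ring subunit of ATP synthase, had a footprint value of 73.9 and an RNA value of 0.691, a ratio of 107. COX7B, a small subunit of cytochrome c oxidase, had 91.1 and 0.925, a ratio of 98.5. SDHA, the flavoprotein of succinate dehydrogenase, had the lowest ratio of the list, 4.12, from 15.3 and 3.71. For the 36 nuclear complex I genes the median was 1.49 with 24 high and 0 low, but only 0.36 after length adjustment. NDUFB2, an accessory subunit, had the seventh highest TE of all genes in the table, with footprints at 21.6 and RNA at 0.167. The core subunit NDUFS8 had 19.96 and 4.88, a ratio of 4.09. The 29 genes of mitochondrial protein import had a median of 1.11, and 0.20 after length adjustment, and TOMM7 of the outer membrane translocase led them with a ratio of 52.1.

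Cytosolic ribosomal protein genes took 15.95% of the summed footprint value and 5.06% of the summed RNA value, or 10.6% of the RNA outside mitochondrially encoded genes. Of 82 measured genes, 57 were high and 1 was low, and the median log2 TE was 1.64, or 3.13-fold above all genes. The length-adjusted median was 0.60, with 29 high and 5 low. Quantile normalization, which gives both columns the same distribution, brought the median to 0.56. The spread within this family was wide. RPS27L, a paralog of RPS27 that p53 can induce, had the highest TE of all genes, with a footprint value of 69.0 and an RNA value of 0.233, a ratio of 296. RPS27 itself had 112 and 2.66, a ratio of 42.2. RPL37A and RPL37, both proteins of the large subunit, had ratios of 137 and 125, from footprints of 206 and 418 and RNA of 1.501 and 3.33. At the lower end, RPS2 had a footprint value of 175, near that of its family, but an RNA value of 103, a ratio of 1.69. RPL12, a stalk-base protein, had 86.2 and 27.6, a ratio of 3.13. The 45 large subunit genes had a median of 1.86 and the 31 small subunit genes 1.47, which became 0.79 and 0.53 after length adjustment. Many ribosomal protein genes have processed copies in the genome, and 80 of the 82 share over 20% of their coding runs with other transcripts, so the values of single members such as RPS2 are uncertain. The 2 genes left without that sharing, RPS27L and RPL11, had ratios of 296 and 4.33.

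Paralog pairs of ribosomal proteins, picked after their values were seen, did not share a TE. RPL22L1 had a footprint value of 13.7 and an RNA value of 0.253, a ratio of 54.3, while RPL22 had 84.7 and 13.5, a ratio of 6.29. RPL39L had a ratio of 73.4 and RPL39 one of 33.1. RPL26L1 went the other way, with 6.58 against 14.997 for RPL26. Within each pair the coding sequences have nearly the same length.

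A TOP start was more frequent among these genes than in the table. Of 66 ribosomal protein genes with a RefSeq start (GRCh38.p14), 43 (65.2%) began with C and 4 pyrimidines at the annotated first base, compared with 475 of 8440 genes (5.63%). The first 15 bases of some of these mRNAs are given 5′ to 3′ on the sense strand, with the C and its pyrimidine run in capitals, to show how alike the starts of genes with unlike TE were, and a pair without the motif closes the set.
RPL37A: CTTTCTgggctcgga
RPL41: CTCTCggccttagcg
NACA: CTTTCTgccgccatc
EEF1A1: CTTTTTCgcaacggg
EEF2: CTCTTCCgccgtcgt
RPL12: CCTCTCggctttcgg
CCNI: CTCCCTCCCCagcct
RPS27L: gcagatcgcttgcag
TMSB10: gtttcttgctgcagc
The TE ratio was 137 for RPL37A, 49.8 for RPL41, 27.9 for NACA (a nascent chain chaperone) and 13.2 for EEF1A1. It was 3.13 for EEF2, 3.13 for RPL12 and 1.59 for the cyclin CCNI. Within the ribosomal proteins, the 43 genes with the motif had a median log2 TE of 1.67 and the 23 without it 1.68. Among all other genes the 432 with it had 0.13 and the 7942 without it −0.03. With the start of the GENCODE transcript in place of the RefSeq start, 17 of 81 ribosomal protein genes (21.0%) carried the motif, against 3.02% of all genes, so the count depends on the annotation. Absence of these letters says only that the annotated start does not hold them.

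The 19 other genes listed as TOP mRNAs had a median log2 TE of 0.59, which became −0.42 under quantile normalization. Of them, 7 were high and 3 low. EEF1A1 and EEF2, whose starts are shown above, are not in this list and are counted with the elongation factors below. EEF1A1, which brings aminoacyl-tRNA to the ribosome, had a footprint value of 611 and an RNA value of 46.3, a ratio of 13.2. EEF2, the translocation factor, had 119 and 38.0. That ratio of 3.13 stands at −0.58 relative to the median. In the TOP list, TMSB10, an actin-binding thymosin, had 442 and 15.5, a ratio of 28.5. Its coding sequence has 135 bases, and its length-adjusted TE was only 0.11.

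Among the 42 initiation factors, 12 were high and 6 low, with a median of 0.27 that became −0.20 under quantile normalization. After length adjustment the list median was 0.25. The eIF4 group, taken out after the values were seen, had a median of −0.85 with 5 of 10 genes low, and −0.52 after length adjustment. Members of the eIF4 group included both the lowest and the highest ratio of the factors. EIF4A1, the RNA helicase of the cap-binding complex, had a footprint value of 2.70 and an RNA value of 4.43, a ratio of 0.61, although all of its runs also occur in other annotated transcripts. The scaffolds EIF4G1, EIF4G2 and EIF4G3 had ratios of 1.95, 1.68 and 1.80, and EIF4B, a cofactor of the helicase, had 1.69. EIF4E, the cap-binding protein, had a footprint value of 15.2 and an RNA value of 0.401. Its ratio was 38.0, although 89.3% of its runs are shared. The 13 eIF3 genes had a median of 0.31, and EIF1, which monitors start codon selection, had 122 and 3.96, a ratio of 30.7.

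The 16 elongation and termination factors had a median of 0.91 with 6 high and 0 low. EIF5A, which helps ribosomes through difficult peptide bonds, had a footprint value of 129 and an RNA value of 6.46. EIF5AL1, with all of its runs shared with other transcripts, had 66.8 and 1.21. The 20 cytosolic aminoacyl-tRNA synthetases had a median of 0.23 before length adjustment, and 18 of 20 were neither high nor low. Quantile normalization put that median at −0.05. After length adjustment it was 0.55, with 18 of 20 genes above the length trend, 4 high and 0 low.

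Large complexes that fold and degrade proteins were on the high side. All 8 subunits of the TRiC chaperonin, which folds actin and tubulin, lay above the median of all genes and within a narrow range. Their TE ratios ran from 5.48 for TCP1 (footprints 19.3, RNA 3.51) to 13.2 for CCT4 (footprints 33.2, RNA 2.51). Their median log2 TE of 0.83 became −0.04 under quantile normalization, so its sign rests on the scale of the columns. Of 39 proteasome genes, 21 were high and 0 low, with a median of 1.04, which was 0.67 after length adjustment and 0.42 under quantile normalization. PSMA5, an alpha subunit of the core particle, had a footprint value of 22.4 and an RNA value of 0.415, a ratio of 54.1. PSME4, a large activator, was the lowest at 3.002, from 1.95 and 0.650. The 12 alpha and beta subunits of the 20S core had a median of 1.42 and the 19 subunits of the 19S cap 0.73, which became 0.74 and 0.65 after length adjustment. The 74 mitochondrial ribosomal protein genes had a median of 1.04, and 0.28 after length adjustment. MRPS33 and MRPS23 of the small subunit had ratios of 50.4 and 48.2, and MRPL18 had 2.44, from a footprint value of 5.93 and an RNA value of 2.43.

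Histones had the highest median TE of the 52 lists, at 2.28, and 48 of 51 genes were high. Quantile normalization brought the median to 1.51 and length adjustment to 1.08. The 41 replication-dependent genes, whose mRNAs end in a stem-loop and lack poly(A) tails, reached a median of 2.47, and the 10 replacement histones, with mostly polyadenylated mRNAs, had 1.79. After length adjustment these were 1.22 and 0.96. HIST1H3H had a footprint value of 208 and an RNA value of 1.68, a ratio of 124. HIST3H2BB had 174 and 1.86, a ratio of 93.8. The linker histone H1F0 was the lowest of the family, with 30.5 and 9.84, a ratio of 3.10. Of the replacement genes, H3F3A had a ratio of 14.7 and H3F3B one of 24.2, although both encode histone H3.3. HIST2H4A and HIST2H4B shared the highest footprint value in the table, 812, with RNA values of 23.6 and 12.5, and all their coding runs also occur in other transcripts. The labels give total RNA as the molecule, and whether poly(A) RNA was selected for RNA-seq is not given in the sources used here, so its part in the histone values was not tested. In a bulk culture, the share of cells in S phase and the amount of histone RNA per cell cannot be told apart.

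**Figure D4:**
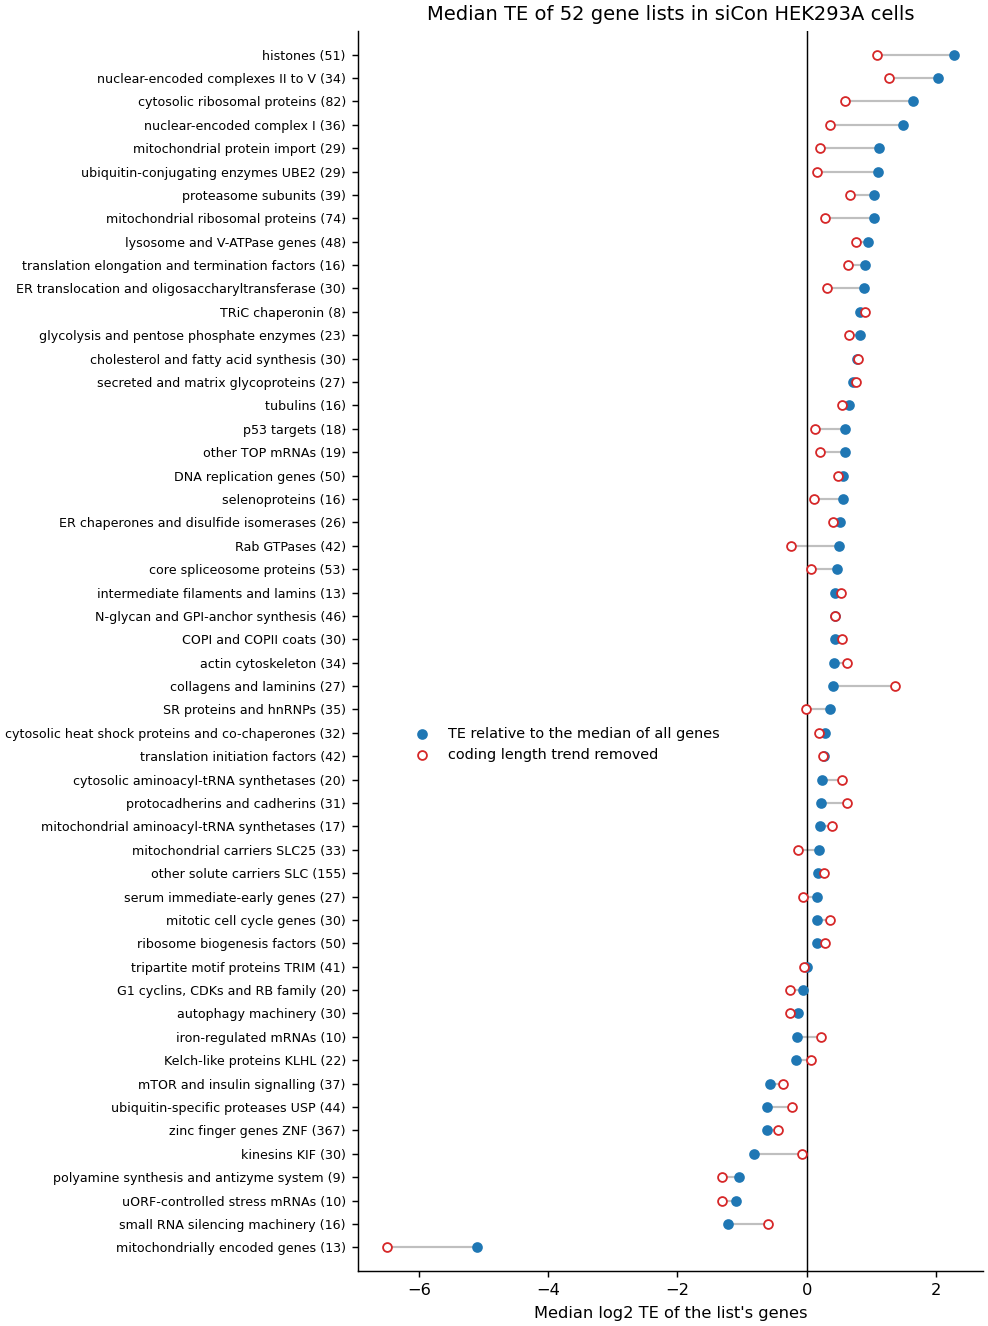
Median log2 TE of each of 52 gene lists relative to the median of all genes (filled) and after length adjustment (open), with the number of measured genes in brackets. Histones and nuclear respiratory chain genes stand highest at 2.28 and 2.03, mitochondrially encoded genes lowest at −5.11, and the open points of short-gene families such as ribosomal proteins (0.60) and complex I (0.36) sit closer to 0.

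Low TE outside mitochondria was found in mRNAs with known uORFs. Of 10 measured stress mRNAs of this kind, 6 were low and 0 high, with a median log2 TE of −1.10 and −1.31 after length adjustment. All 10 have at least 1 ATG in the 5′ UTR of the chosen transcript, as do 51.3% of all genes. ATF5, a transcription factor of the mitochondrial stress response, had a footprint value of 0.403 and an RNA value of 1.55, and its ratio of 0.260 was 18.1-fold below the median. PPP1R15A, the stress-induced partner of the phosphatase that reverses eIF2α phosphorylation, had 0.971 and 2.06, a ratio of 0.471. ATF4, the central transcription factor of the integrated stress response, had 3.92 and 3.29, a ratio of 1.19. Only 2 members lay above the median of all genes. TRIB3, a pseudokinase induced by ATF4, had 1.03 and 0.144, a ratio of 7.16, and UCHL5, a proteasome-bound deubiquitinase, had 5.76 and 0.793, a ratio of 7.27. The constitutive phosphatase partner PPP1R15B had 1.99 and 0.766, a ratio of 2.59.

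A short uORF, of at most 30 bases and wholly inside the 5′ UTR of the GENCODE 29 transcript, occurred in 7 of the 10 stress mRNAs and in 4 of 9 mRNAs of the polyamine pathway described next. Those of all 7 stress mRNAs and of 3 polyamine mRNAs (AMD1, ODC1 and SAT1) are given whole, from the upstream ATG in capitals to the stop codon, to show the elements that stood in mRNAs of unlike TE. ATF4 and ATF5 also have longer uORFs that overlap the coding sequence and are not shown. The uORF numbers below only count the short frames shown, in their order along the 5′ UTR. They are not the published names of these uORFs.
ATF4, uORF 1: ATGtag
ATF4, uORF 2: ATGgcgtattag
ATF4, uORF 3: ATGgcgtga
ATF4, uORF 4: ATGggagttggcttctga
ATF5: ATGgctctgtag
IBTK, uORF 1: ATGgatatttaa
IBTK, uORF 2: ATGaagaacttgtatttgatatga
IFRD1: ATGtgtgtaattcctcccagtatttga
MIEF1: ATGtattaa
PPP1R15B: ATGgtgttgaagcgtcgagccgactag
TRIB3: ATGtctgcactgaccagacgcccctag
AMD1: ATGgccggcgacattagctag
ODC1: ATGgcgacccgccggtgctataagtag
SAT1: ATGgtgccagcctga
Of the 7 stress mRNAs with a short uORF, 5 were low and only TRIB3 lay above the median of all genes. Of the 4 polyamine mRNAs 2 were low and only ODC1, at 6.96, lay above it. Within the lists the difference was small and not in 1 direction. The median log2 TE of the stress mRNAs was −1.11 with a short uORF and −0.94 without. For the polyamine mRNAs it was −0.91 with and −1.05 without. MIEF1, IBTK and IFRD1 had TE ratios of 1.68, 2.18 and 2.21. In the whole table, 2722 of 10002 genes with an annotated 5′ UTR (27.2%) had such a uORF. Their median log2 TE was −0.31, with 1059 genes above the median of all genes, and that of the genes without one was 0.13.

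The polyamine pathway, whose mRNAs respond to polyamines through uORFs and ribosomal frameshifting, was low as a group. Of 9 genes, 5 were low and 0 high, with a median of −1.05 and −1.31 after length adjustment, although adding 1 to every footprint and RNA value turned the median to 0.10. OAZ1, the antizyme whose synthesis needs a frameshift, had a footprint value of 12.02 and an RNA value of 9.47, a ratio of 1.27. SAT1, the acetyltransferase that starts polyamine breakdown, had 22.5 and 15.7, a ratio of 1.43. SMS, spermine synthase, had 50.02 and 22.04. AMD1, whose uORF encodes a peptide that stalls ribosomes when polyamines are high, had 7.48 and 2.02, a ratio of 3.70. ODC1, the decarboxylase that antizyme inhibits, was the only member above the median, with 11.1 and 1.60.

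Iron-regulated mRNAs were found on both sides of the median of all genes, with 3 high and 2 low of 10. The ferritin mRNAs, which carry an iron-responsive element in the 5′ UTR where bound regulatory protein blocks initiation, had ratios of 1.84 for FTL (footprints 8.77, RNA 4.77) and 2.57 for FTH1 (footprints 23.8, RNA 9.25). After length adjustment these were 4.87-fold and 3.37-fold low. TFRC, the transferrin receptor, which carries the element in the 3′ UTR where it protects the mRNA, had 10.99 and 0.949, a ratio of 11.6. The iron transporter SLC11A2, with a 3′ element, had 12.6. EPAS1 and SLC40A1, which have a 5′ element, had 2.16 and 2.48. Not every member with an element is described, so no order by its position is drawn. Both ferritins share most of their coding runs with processed copies (62.3% for FTL and 91.4% for FTH1).

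The machinery of small RNA silencing had the second lowest median, −1.21, with 9 of 16 genes low and 0 high. After length adjustment it was −0.60, since these proteins are long, with a median coding length of 2799 bases. DROSHA, the nuclease that cuts primary microRNA transcripts, had a footprint value of 2.51 and an RNA value of 2.77, a ratio of 0.907. DICER1, which makes the mature duplexes, had 1.33 and 0.852, a ratio of 1.56. The 7 AGO and TNRC6 genes of the effector complex, grouped after the values were seen, had a median of −1.51, and −0.74 after length adjustment, and before adjustment AGO3 alone among them was not low, at 4.61. XPO5, the exporter of microRNA precursors, had 3.64 and 0.452, a ratio of 8.05, and PRKRA, a DICER1 partner, had 8.87.

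**Figure D5:**
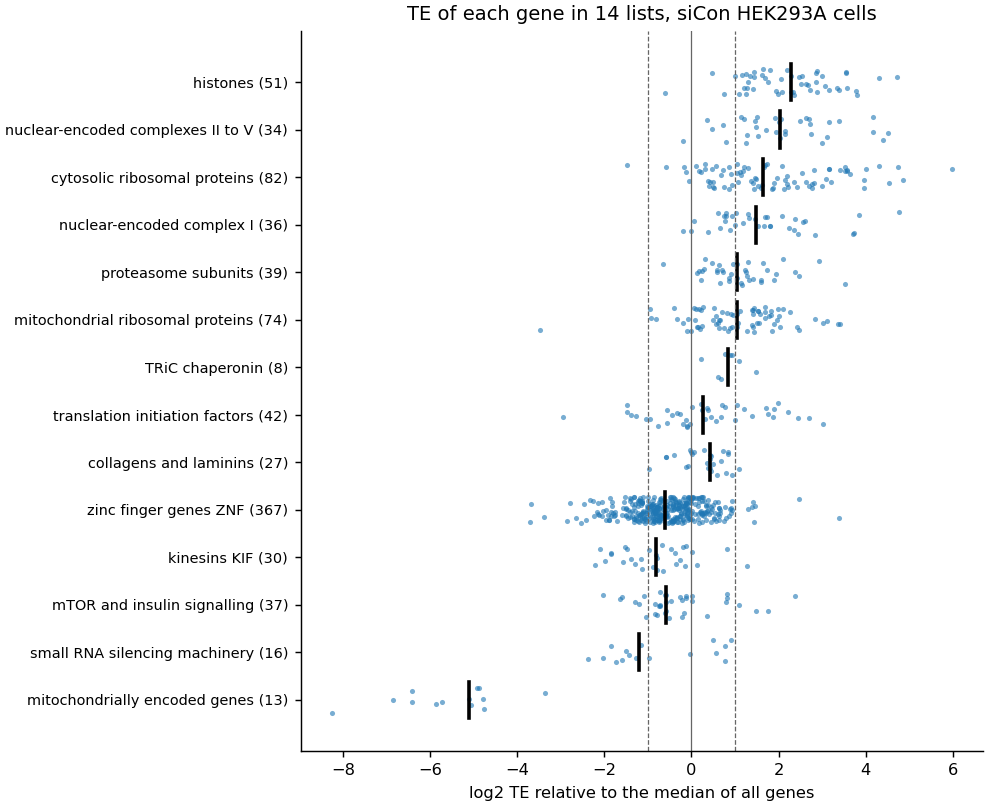
Log2 TE of each gene relative to the median of all genes in 14 lists, with the list median as a black bar and dashed lines at 2-fold above and below. Histones and respiratory chain genes lie mostly right of the upper line, zinc finger and kinesin genes lie mostly left of 0, and the 13 mitochondrially encoded genes lie between −8.26 and −3.37, below all genes of the other lists apart from 3 zinc finger genes and 1 mitochondrial ribosomal protein gene.

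Several gene-regulatory, motor and signalling families were below the median. The 367 zinc finger genes named ZNF had a median of −0.62 with 104 low and 7 high, and −0.44 after length adjustment. ZNF91, a repressor of retroelements, had a footprint value of 1.05 and an RNA value of 1.25, a ratio of 0.844. ZNF207, a mitotic protein rather than a classical repressor, had 26.5 and 1.02, a ratio of 26.1. The 30 kinesins had a median of −0.81 but −0.07 after length adjustment, and the 44 ubiquitin-specific proteases −0.61 and −0.22. The 37 genes of mTOR and insulin signalling had −0.57 and −0.36. Within them RPS6KB2, an S6 kinase, had 1.24 and 1.08, a ratio of 1.15, whereas LAMTOR4, a small Ragulator subunit, had 12.5 and 0.509, a ratio of 24.6. Serum immediate-early genes were spread on both sides of the median of all genes, with a list median of 0.16, and −0.06 after length adjustment. Of 27 genes, 18 lay above the median of all genes. High were 2 (7.41%, against 18.0% of all genes) and low were 6 (22.2%, against 17.4%). The transcription factors EGR1 and JUND had ratios of 1.41 and 1.54 (EGR1 footprints 2.54 and RNA 1.80, JUND 7.13 and 4.64), and CTGF, a secreted matrix protein, had 78.9 and 6.14, a ratio of 12.9.

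For collagens and laminins the length adjustment worked the other way. Their 27 genes have a median coding length of 5058 bases and a median log2 TE of 0.41, with 1 high and 0 low, and the length-adjusted median of 1.37 was the highest of the 52 lists, with 18 genes high. LAMB2, a laminin chain, had a footprint value of 3.01 and an RNA value of 0.336, a ratio of 8.95. COL4A2, a basement membrane collagen, had 2.64 and 0.421, a ratio of 6.27. Only 6 of the 27 passed a geometric mean of both values of at least 1, and these had a median of −0.16 relative to the genes that passed, so the sign before length adjustment depends on that minimum.

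Lists of secreted, lysosomal and lipid synthesis genes also had medians above that of all genes. Of 27 secreted glycoproteins 10 were high and 0 low, with a median of 0.71. CST3, the protease inhibitor cystatin C, had a footprint value of 45.5 and an RNA value of 1.19, a ratio of 38.1, and the growth factor MDK had 59.2 and 15.1, a ratio of 3.92. The 48 lysosome and V-ATPase genes had a median of 0.94 with 23 high and 0 low, and 0.77 after length adjustment, led by the protease CTSV at 32.5. The 30 genes of sterol and fatty acid synthesis had 0.78 and 0.80. MSMO1, a sterol methyl oxidase, had 4.82 and 0.228, a ratio of 21.1, and SREBF2, the transcription factor that controls the pathway, had 1.69 and 0.937, a ratio of 1.80. The ER chaperone HSPA5 had 50.1 and 3.70, a ratio of 13.6. ERN1, which encodes IRE1α, had 0.402 and 0.121, a ratio of 3.31, and its target XBP1 had 4.16 and 1.19, a ratio of 3.50. Both lay below the median of all genes, but within 2-fold of it.

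Among the 4731 genes with a geometric mean of both values of at least 1, the other genes at the upper end were mostly short. GTF2H5, the smallest subunit of the repair and transcription factor TFIIH, had a footprint value of 18.9 and an RNA value of 0.137, a ratio of 138, with a coding sequence of 216 bases. HSBP1, which binds heat shock factor, had 41.3 and 0.306, a ratio of 135, and RPA3, the small subunit of the single-strand DNA binding complex, 26.7 and 0.211, a ratio of 127. SKP1, the adaptor of SCF ubiquitin ligases, had 79.6 and 0.668, a ratio of 119, and was still 12.6-fold high after length adjustment, with 76.8% of its runs shared. At the lower end, TUT1, a nuclear uridylyltransferase of U6 RNA, was the only gene not encoded by mitochondria among the 10 lowest. Its footprint value was 1.04 and its RNA value 7.79, a ratio of 0.133, and 55.7% of its runs occur in other annotated transcripts. HNRNPUL1, an RNA-binding protein, had 10.3 and 13.5, a ratio of 0.762, with no shared runs.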

How the data were processed

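RNA-seq and Ribo-seq values of siCon HEK293A cells were taken from the deposited table. Per the file headers it gives 1 footprint and 1 RNA abundance value per gene for the control group and the authors' ratio of these (TE), which was recomputed and matched. The unit of the abundances, counting, scaling and the combination of replicates are not given in the sources used here. Per the submitters' processing notes, Bowtie 1.1.2 and hg19 (GRCh37) were used. Cluster counts per library come from the deposited run summary, per the file headers.

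No pseudocount was used, as no value was 0. With 1 value per gene and assay there is no test. TE was centred on the median of all genes. The length trend is a lowess fit with a span of 0.3. Transcript features came from GENCODE 29, with 259 genes matched through an older symbol, and mRNA starts from RefSeq GRCh38.p14. Shared runs are 28-base stretches of a coding sequence found in transcripts of another gene.

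The members, the 52 lists and the rules were chosen with earlier results of these data known. Subgroups, upstream ATGs and shared runs were added after seeing the values. Named genes were the 10 highest and 10 lowest in TE, the 5 highest in each assay, and up to 2 members at each end of a list, all with a geometric mean of both values of at least 1, plus fixed reference genes. A gene that the rule takes is counted but not reported here by name. Paralogs and a few further members were chosen after their values were seen. The ratio and trend steps were tested on simulated data. Python 3.11.15, pandas 2.3.3 and statsmodels 0.14.6 were used.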

Additional observations from a re-analysis of the deposited data

How the results depend on the processing

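With a pseudocount of 0.1, a footprint value of at least 1, the deposited TE column, GC content trend removed, repeated symbols kept, or 9 read-through genes and 2 genes with identical values dropped, all 52 list medians moved by under 1.5-fold, and between 0 and 7 changed sign. No paired analysis was possible because the table holds 1 value per gene and assay, so no library could be left out either. The numbers of genes at least 2-fold high and low were 1885 and 1828. They were 861 and 788 among the 4731 genes with a geometric mean of at least 1, 1176 and 1086 with footprints of at least 1 (7072 genes), 414 and 439 with RNA of at least 1 (2223 genes), 3079 and 3089 at 1.5-fold, and 452 and 394 at 4-fold, as fewer genes or another limit requires.

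A pseudocount of 1 left 180 low genes and turned the polyamine genes from −1.05 to 0.10 and PABPC1 from −1.05 to 0.19. It moved ribosomal proteins to 2.74, initiation factors to 0.99, other TOP mRNAs to 1.82, cytosolic synthetases to 0.85, TRiC to 1.82, heat shock proteins to 1.18, complexes II to V to 2.68, mitochondrially encoded genes to −3.81, spliceosome proteins to 1.07, SR proteins and hnRNPs to 1.35, histones to 3.12, tubulins to 1.38, ER translocation to 1.75, uORF stress mRNAs to −0.50, mitotic genes to 0.81, glycolysis to 1.43, COPI and COPII coats to 1.08 and small RNA silencing to −0.52.

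Quantile normalization moved ribosomal proteins to 0.56, other TOP mRNAs to −0.42, TRiC to −0.0355, heat shock proteins to −0.34, the proteasome to 0.42, complexes II to V to 1.35, mitochondrially encoded genes to −4.47, SR proteins and hnRNPs to −0.41, histones to 1.51, UBE2 enzymes to 0.48, tubulins to −0.12, ER translocation to 0.12 and glycolysis to 0.0173, and 14 medians changed sign.

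Removing the length trend moved ribosomal proteins to 0.60, mitochondrial ribosomal proteins to 0.28, complex I to 0.36, complexes II to V to 1.27, mitochondrially encoded genes to −6.50, mitochondrial import to 0.20, histones to 1.08, Rab GTPases to −0.24, UBE2 enzymes to 0.16, kinesins to −0.0748, collagens and laminins to 1.37 and small RNA silencing to −0.60.

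A geometric mean of at least 1 moved N-glycan synthesis to −0.16 and autophagy to 0.50, and 11 of 52 medians changed sign. RNA of at least 1 moved mitochondrial ribosomal proteins to 0.40, complex I to 0.86, import to 0.44, cadherins to −1.27 (1 gene), collagens to −0.28 (1 gene), uORF stress mRNAs to −2.81 (4 genes), iron-regulated mRNAs to −1.04 (3 genes) and small RNA silencing to −2.54 (1 gene). Dropping the 1637 genes with over 20% shared runs, chosen after seeing the data, left 2 ribosomal protein genes at 2.997 and 15 cadherins at −0.93. Except where a setting's own construction leaves fewer genes, the cause of these shifts was not tested. Depth per gene is unknown, so the counting error of low values could not be given.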

Other observations

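Genes of the p53 response and of DNA replication lay mostly above the median of all genes, with 14 of 18 and 38 of 50 genes above it. So did 18 of 30 mitotic genes, while 9 of 20 G1 regulators did. Above the length trend lay 12 of the p53 targets, 38 of the replication genes, 23 of the mitotic genes and 7 of the G1 regulators. The length-adjusted medians of the last 3 lists were 0.48, 0.36 and −0.26. A raised list median was common, as 39 of the 52 lists had a median above that of all genes. Of the p53 targets, 3 were high (16.7%, against 18.0% of all genes) and 0 low in TE (17.4% of all genes). Their median log2 TE was 0.59, and 0.13 after length adjustment. MDM2, the ubiquitin ligase of p53, had a footprint value of 23.5 and an RNA value of 3.21, a ratio of 7.32. The G1 cyclins, CDKs and RB family genes had a median of −0.05, and E2F1, a transcription factor of S phase entry, had 1.76 and 1.06, a ratio of 1.67. The mitotic checkpoint protein MAD2L1 had 31.9 and 0.738, a ratio of 43.2, while the kinetochore protein CENPF had 2.73 and 1.29, a ratio of 2.12. Of the DNA replication genes, which had a median of 0.56, 13 were high and 1 was low, and the low gene was the chromatin assembly factor CHAF1A, with 1.41 and 1.07.

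Selenoproteins, in which a stop codon is read as selenocysteine, had a median of 0.56 over 16 genes, and 0.11 after length adjustment. The lipid peroxidase GPX4 had a footprint value of 7.41 and an RNA value of 2.79, a ratio of 2.66, and SELK, a small ER membrane protein, had 12.6 and 0.423, a ratio of 29.9.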
